A study of Homo sapiens with 6 samples.

Results

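The TNF superfamily pairs trimeric ligands with cysteine-rich receptors. Its ligands and receptors carry survival, death and differentiation signals between lymphoid cells, largely through TRAF adaptors and the NF-kB transcription factors. Plasma cells and their malignant counterparts rely on several of these receptors for survival signals from the bone marrow. The genes described here are 10 lymphoid members chosen by symbol: the ligands LTB, LTA, TNF and CD70 and the receptors TNFRSF1B, TNFRSF8, CD27, CD40, TNFRSF13B and TNFRSF13C. They are 10 of 57861 usable genes, each present as 1 row in every table, and TNFRSF17, another receptor of the family, is not among them.

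The cells were MOLP-8, an established human multiple myeloma line, cultured in RPMI medium with 10% serum; puromycin at 1 ug per mL selected the transduced cells. LIN28B KO cells carried lentiCRISPRv2, which delivers Cas9 and a guide, with a guide against LIN28B, and control cells carried the same vector with a scrambled guide. There were 3 RNA sequencing libraries per group, 6 in all. Nothing in the labels says whether libraries of a group were separate cultures or whether the cells were 1 clone or a pool, and the p-values given here describe spread among libraries that may be technical repeats. LIN28B blocks the maturation of let-7 microRNAs, which repress mRNAs with matching sites in their 3′ UTRs, and the comparison asks which transcripts differ once LIN28B is targeted.

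Levels are FPKM, fragments scaled to transcript length and library size, so that genes can be set beside each other per length. Depth, estimated from the deposited bounds, was 4810000 to 5600000 fragment equivalents in LIN28B KO libraries and 6310000 to 8370000 in controls. LIN28B, the targeted gene, had 8.41, 8.17 and 5.84 FPKM in LIN28B KO libraries 1 to 3, against 23.3, 24.3 and 25.5 FPKM in the controls, so its transcript was reduced to 30.7% of the control mean and not absent. LIN28B KO library 3 stood apart: 28.7% of 349 olfactory receptor genes had a value above 0 there, against 11.5% and 14.6% in LIN28B KO libraries 1 and 2 and 9.46% to 12.3% in controls, and protein-coding genes at 20 to 100 FPKM had a median log2 ratio to the control mean of -0.51 in it against -0.07 in the other LIN28B KO libraries. Results are therefore given with all 6 libraries and, over protein-coding genes, with the 5 libraries that leave it out. The 5-library fit is a second fit, chosen with earlier results of these data known. Plasma cell markers were abundant in every library, with SDC1, the surface proteoglycan that defines plasma cells, at 189 to 298 FPKM in LIN28B KO and 303 to 326 FPKM in control libraries, while other lymphoid markers were mixed: CD3D, NKG7 and MS4A1 were listed at 0 in all 6, and CD247, a T cell receptor chain, and CD79B, a B cell receptor chain, averaged 25.1 and 27.8 FPKM in LIN28B KO and 27.6 and 32.9 FPKM in control cells.

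The sequences that bear on these genes are the let-7 family itself, whose members share 1 seed, the single let-7 match found among the 10 genes, and the promoters of both lymphotoxin genes. Mature let-7a is printed with its seed, bases 2 to 8, in capitals. The match lies in the 3′ UTR of TNFRSF1B, on the plus strand at chr1:12208266-12208288 of GRCh38, and its capitals mark the bases CTACCTC that pair with the seed. It was searched for in the longest 3′ UTR of each gene in GENCODE 29, whose build differs from the GRCh37 of the expression tables. Of the 10 genes 1 held the match, as did 11.0% of 11190 tested protein-coding genes, and LIN28B itself held 4.
let-7a-5p: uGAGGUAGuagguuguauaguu
TNFRSF1B 3′ UTR: gccatctctctactcCTACCTCa

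RefSeq promoter windows (GRCh38.p14), 250 bases before to 50 after a start, were matched for 7 of the 10 genes. The consensus kB decamer, the recognition motif of NF-kB, was searched on both strands. Among those 7 genes, which had 9 windows, it occurred only in windows of LTB and LTA. In all it occurred in 5.91% of 35116 windows, a share of windows and not of genes. The match begins 86 and 87 bases before the pair of LTB starts listed, where it reads on the opposite strand, and 103 bases before 1 of the 2 LTA starts listed. Shown are the 150 bases before 1 start of each gene, with the decamer in capitals, for LTB on the minus strand at chr6:31582426-31582575 and for LTA on the plus strand at chr6:31572139-31572288. A match describes these letters only and is no evidence of binding.
LTB promoter: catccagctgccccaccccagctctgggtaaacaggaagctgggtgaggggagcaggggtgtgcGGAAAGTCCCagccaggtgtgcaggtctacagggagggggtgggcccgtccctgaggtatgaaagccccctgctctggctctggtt
LTA promoter: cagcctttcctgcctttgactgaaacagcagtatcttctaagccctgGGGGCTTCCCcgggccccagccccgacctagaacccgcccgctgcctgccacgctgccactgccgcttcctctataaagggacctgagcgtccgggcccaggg

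Among the ligands, LTB fell in the 5-library fit and CD70 was the most abundant. LTB, lymphotoxin beta, anchors the membrane-bound lymphotoxin heterotrimer that signals through the lymphotoxin beta receptor. The whole gene (ENSG00000227507) spans 31548302 to 31550299 on chromosome 6 in GRCh37. Its level was 1.26, 1.12 and 0.697 FPKM in LIN28B KO libraries 1 to 3, against 3.17, 3.94 and 3.89 FPKM in control libraries 1 to 3. Every LIN28B KO library lay below every control, and the deposited bounds of counting error did not meet: the highest upper bound in LIN28B KO was 1.80 FPKM and the lowest lower bound in controls was 2.46 FPKM. The means were 1.03 ± 0.293 FPKM in LIN28B KO and 3.67 ± 0.434 FPKM in control cells (SD, n = 3 each), so LIN28B KO cells held 28.0% of the control level, or 32.5% in libraries 1 and 2 alone. In a bulk sample fewer cells with a transcript and less transcript per cell cannot be told apart.

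**Figure D1:**
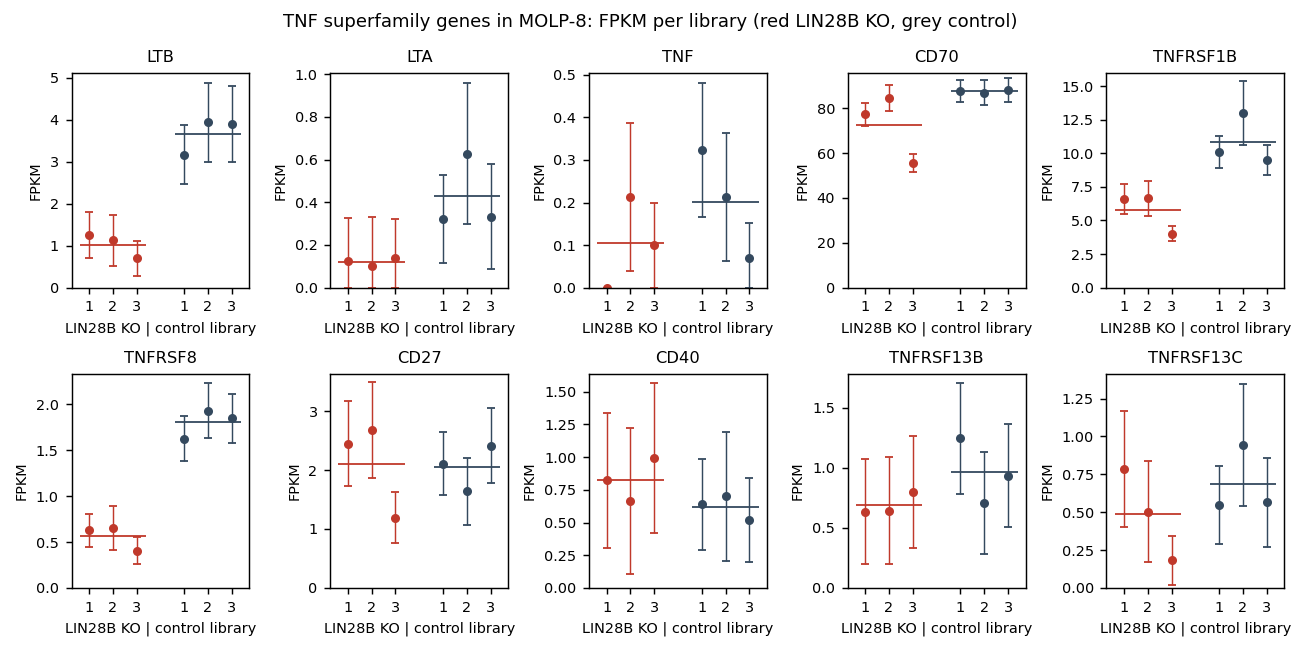
FPKM of each of the 10 genes (vertical axis, linear) in LIN28B KO libraries 1 to 3 (red, left) and control libraries 1 to 3 (grey, right). Points are libraries, bars the deposited bounds of counting error and horizontal lines group means; LTB, TNFRSF8 and TNFRSF1B show LIN28B KO libraries below all controls, and CD70 stands near 87.7 FPKM in every control.

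In the fit of the 5 libraries the log2 fold change of LTB was -1.30 on the log2(FPKM + 0.5) scale (SE 0.16, limma with Benjamini-Hochberg adjustment over 11308 genes, adjusted p = 0.0248). That scale understates changes of low genes. With all 6 libraries the log2 fold change was -1.46 (SE 0.23), with an unadjusted p of 0.000289 and an adjusted p of 0.159 over 15803 genes, and after cyclic loess, a scaling that evens out trends with level, it was -1.51 (adjusted p = 0.0389, or 0.0597 at a filter of 0.1 FPKM). The 5-library call was lost when any 1 of those libraries was left out, when the replicate block was added, and when genes of every kind or without a filter entered (adjusted p = 0.0605 to 0.0921), while the log2 fold change stayed between -1.39 and -1.24 in these fits.

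LTA, lymphotoxin alpha, forms a secreted homotrimer or joins LTB at the membrane, and it was near the limit of detection (ENSG00000226979, chromosome 6, 31539831 to 31542101). It stood at 0.123, 0.0994 and 0.139 FPKM in LIN28B KO libraries 1 to 3, against 0.324, 0.626 and 0.333 FPKM in the controls. The groups did not overlap, but the LIN28B KO values rested on 0.748 to 2.33 fragment equivalents per library and the control values on 7.24 to 14.4. With a lower filter of 0.1 FPKM in 3 libraries, the log2 fold change was -0.59 in the 5-library fit (SE 0.19, unadjusted p = 0.0182, adjusted p = 0.147 over 13967 genes) and -0.57 with all 6 libraries (adjusted p = 0.364), so LTA did not pass.

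TNF, the inflammatory cytokine that names the family, was lower still, with overlapping groups (ENSG00000232810, chromosome 6, 31543344 to 31546113). It was listed at 0 in LIN28B KO library 1, at 0.213 FPKM in library 2 and at 0.0992 FPKM in library 3, against 0.323, 0.213 and 0.0706 FPKM in the controls. No library held more than 17.0 fragment equivalents, and the log2 fold change was -0.22 in both fits (SE 0.23 in the 5-library and 0.22 in the 6-library fit, adjusted p = 0.630 and 0.649).

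CD70, the ligand of CD27, was the highest of the 10 genes in both groups (ENSG00000125726, chromosome 19, 6583194 to 6604114). It stood at 77.4, 84.7 and 55.6 FPKM in LIN28B KO libraries 1 to 3, against 87.8, 87.0 and 88.3 FPKM in the controls. All LIN28B KO libraries were below all controls, but LIN28B KO library 3, where abundant mRNAs were low in general, was the furthest below. The log2 fold change was -0.11 in the 5-library fit (SE 0.06, adjusted p = 0.321) and -0.29 with all 6 libraries (SE 0.18, adjusted p = 0.452). With cyclic loess across the 6 libraries the log2 ratios of CD70 to the control mean were -0.11, 0.02 and -0.12 in LIN28B KO libraries 1 to 3, and CD70 did not pass in any fit run.

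Among the receptors, TNFRSF8 fell in the 5-library fit and TNFRSF1B was lower without passing the threshold; both lie next to each other on chromosome 1. TNFRSF8 encodes CD30, a receptor of activated lymphocytes and of Hodgkin lymphoma cells that signals through TRAF adaptors. It spans 12123434 to 12204264 of chromosome 1 (GRCh37, ENSG00000120949). Its level was 0.628, 0.652 and 0.407 FPKM in LIN28B KO libraries 1 to 3, against 1.63, 1.93 and 1.85 FPKM in the controls. The groups were far apart, with an upper bound of at most 0.889 FPKM in LIN28B KO and a lower bound of at least 1.39 FPKM in controls, and LIN28B KO cells averaged 0.562 ± 0.135 FPKM against 1.80 ± 0.158 FPKM in control cells (SD, n = 3 each), or 31.2% of the control level.

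In the 5-library fit the log2 fold change of TNFRSF8 was -1.01 (limma, SE 0.17, adjusted p = 0.0347), and after cyclic loess it was -1.08 (adjusted p = 0.0377). TNFRSF8 reached 1 FPKM only in the 3 controls, so it entered that fit through the group where it was high. With the filter at 0.1 FPKM, which it met in every library, the call held (adjusted p = 0.0364). With all 6 libraries it missed the threshold (log2 fold change -1.12, SE 0.24, unadjusted p = 0.00184, adjusted p = 0.226). The 5-library call was lost over genes of every kind (adjusted p = 0.0756), without a filter (0.0635), with the replicate block (0.131) and on leaving out LIN28B KO library 1 or 2 (0.0921 and 0.0954), while the log2 fold change, furthest from -1.01 at -1.03 without library 2, kept its size. Without any 1 control TNFRSF8 was under the 1 FPKM filter.

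TNFRSF1B, or TNFR2, is the TNF receptor without a death domain that is found mainly on lymphoid and myeloid cells, and its 3′ UTR holds the let-7 match shown earlier. It lies at 12227060 to 12269285 of chromosome 1 (ENSG00000028137). It stood at 6.60, 6.64 and 4.02 FPKM in LIN28B KO libraries 1 to 3, against 10.1, 13.0 and 9.49 FPKM in the controls. All 3 LIN28B KO libraries were below all controls, and LIN28B KO libraries 1 and 2 differed by less than their counting bounds. The means were 5.75 ± 1.50 FPKM in LIN28B KO and 10.9 ± 1.87 FPKM in control cells (SD, n = 3 each), or 53.0% of the control level. The log2 fold change was -0.66 in the 5-library fit (limma, SE 0.15, unadjusted p = 0.00303, adjusted p = 0.0596) and -0.88 with all 6 libraries (SE 0.23, adjusted p = 0.265), so TNFRSF1B did not pass in either.

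CD27, the receptor for CD70 and a marker of memory B cells and plasma cells, lies on chromosome 12 at 6554033 to 6560884 (ENSG00000139193) and had no single direction. It stood at 2.44, 2.68 and 1.20 FPKM in LIN28B KO libraries 1 to 3, against 2.11, 1.64 and 2.42 FPKM in the controls. LIN28B KO libraries 1 and 2 were above every control and LIN28B KO library 3 below every control. The log2 fold change was 0.27 in the 5-library fit (SE 0.18, adjusted p = 0.423) and -0.01 with all 6 libraries (SE 0.29, adjusted p = 0.987). The antisense gene CD27-AS1 shares 6701 bases of its locus with CD27 and averaged 12.5 FPKM in LIN28B KO and 15.1 FPKM in control cells. Strand is not given in the sources used here, so reads of the CD27 and CD27-AS1 genes cannot be told apart.

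CD40, TNFRSF13B and TNFRSF13C, the receptors of B cell help and B cell survival, were at low levels in both groups. CD40 lies on chromosome 20 at 44746911 to 44758502 (ENSG00000101017), TNFRSF13B on chromosome 17 at 16832849 to 16875432 (ENSG00000240505) and TNFRSF13C on chromosome 22 at 42321045 to 42322822 (ENSG00000159958), all in GRCh37. CD40, the receptor for the T cell ligand CD40LG, stood at 0.822, 0.665 and 0.992 FPKM in LIN28B KO libraries 1 to 3, against 0.641, 0.699 and 0.520 FPKM in the controls. Its groups overlapped, and its highest value was in LIN28B KO library 3, the library in which 28.7% of olfactory receptor genes were above 0, whose part in the CD40 value was not tested. TNFRSF13B, or TACI, binds the ligands BAFF and APRIL and stood at 0.635, 0.643 and 0.796 FPKM in LIN28B KO libraries 1 to 3, against 1.25, 0.707 and 0.933 FPKM in the controls. LIN28B KO libraries 1 and 2 were below all controls and library 3 was not. TNFRSF13C, the BAFF receptor, stood at 0.787, 0.504 and 0.182 FPKM in LIN28B KO libraries 1 to 3, against 0.545, 0.946 and 0.566 FPKM in the controls, with overlapping groups.

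None of these 3 receptors passed with the lower filter. In the 5-library fit the log2 fold change of CD40 was 0.15 (SE 0.16, adjusted p = 0.621). That of TNFRSF13B was -0.34 (SE 0.19, adjusted p = 0.349) and that of TNFRSF13C was -0.04 (SE 0.21, adjusted p = 0.927). Each of these values rested on at most 29.2 fragment equivalents per library. The locus of TNFRSF13B also shares 5305 bases with the pseudogene TBC1D27.

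**Figure D2:**
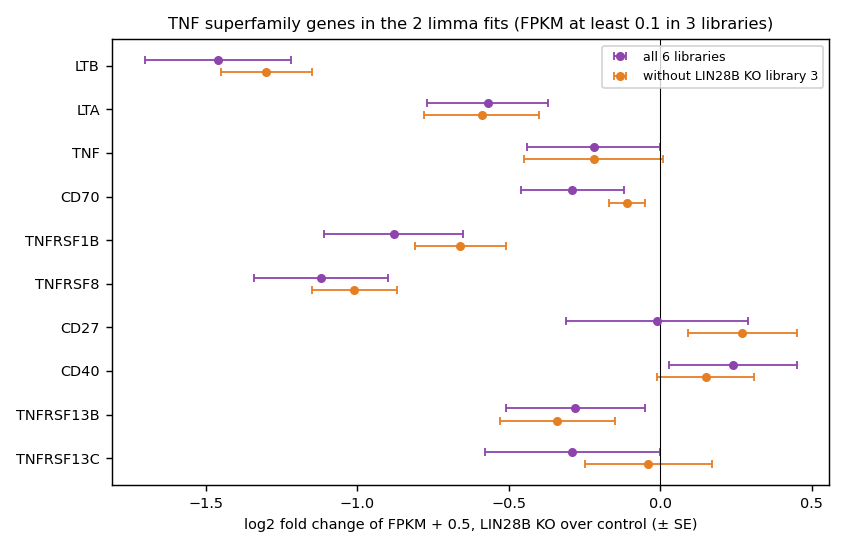
Log2 fold change of LIN28B KO over control on the log2(FPKM + 0.5) scale (horizontal axis, ± SE) for the 10 genes, from limma with all 6 libraries (purple) and without LIN28B KO library 3 (orange), with a filter of 0.1 FPKM in 3 libraries. LTB, TNFRSF8 and TNFRSF1B lie below 0 in both fits, at -1.30, -1.01 and -0.66 without library 3, and CD27 changes sign between the fits.

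Counted over the 10 genes, 5 had groups that did not overlap, LTB, LTA, CD70, TNFRSF8 and TNFRSF1B, all lower in LIN28B KO. Over 24744 genes at 0.1 FPKM or more in 3 libraries, 14.2% were lower without overlap and 11.7% higher. With 3 libraries a group the two-sided exact permutation test has a smallest p of 0.1, and each of these 5 had that value. Of the 10 genes, 5 passed the 1 FPKM filter, and in the 5-library fit 2 of these were called lower and 0 higher, where 3.02% of 11308 genes were called lower and 1.08% higher. TNFRSF8, 1 of these 2, reached 1 FPKM only in controls, so it was counted through the group where it was high. At the lower filter all 10 entered and the same 2, LTB and TNFRSF8, were called, against 1.79% of 13967 genes called lower and 0.737% called higher. With all 6 libraries limma called 0 of 5, where 0.0316% of 15803 genes were called lower and 0.0633% higher. Of those 5, 3 had an unadjusted p under 0.05, as did 13.7% of all genes there. In the 5-library fit it was also 3, against 22.8%, and TNFRSF8 was among the 3 in both fits. After cyclic loess 1 of the 5, LTB, was called with all 6 libraries, where 0.342% of genes were called lower and 0.361% higher.

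The median log2 fold change over all 10 genes at the lower filter was -0.28 in the 5-library fit, against -0.01 for all genes there. With all 6 libraries the medians were -0.29 for the 10 genes and -0.03 for all genes. At the 1 FPKM filter all genes had a median of -0.13 in the 6-library fit, which cyclic loess set to 0.00. The split of calls depended on scaling. Without LIN28B KO library 3, 26.3% of called genes were higher in LIN28B KO, and 48.0% after cyclic loess, when 1.17% of all genes were called lower and 1.08% higher. LTB and TNFRSF8 were called under both scalings.

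Ranked by level, the order changed in the middle of the list. In control cells it ran CD70, TNFRSF1B, LTB, CD27, TNFRSF8, TNFRSF13B, TNFRSF13C, CD40, LTA and TNF, at mean levels of 87.7, 10.9, 3.67, 2.06, 1.80, 0.963, 0.686, 0.620, 0.428 and 0.202 FPKM. CD27 and TNFRSF8 overlapped there, as did TNFRSF13B with TNFRSF13C, TNFRSF13C with CD40 and CD40 with LTA, while the other neighbours in that order did not. In LIN28B KO cells CD27 at 2.11 FPKM stood above LTB at 1.03 FPKM on average, but their libraries overlapped. CD40 at 0.826 FPKM stood above TNFRSF8 at 0.562 FPKM without overlap. The lowest CD40 value was 0.665 FPKM and the highest TNFRSF8 value 0.652 FPKM, and the counting bounds of these values met. TNFRSF13B, TNFRSF8 and TNFRSF13C overlapped, as did LTA and TNF. CD70 and TNFRSF1B stayed first and second, and LTA and TNF last, in both groups.

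The 3 ligand genes on chromosome 6 lie within a few kilobases of each other, with 1.24 kb between LTA and TNF and 2.19 kb between TNF and LTB. None of their listed neighbours passed. Of 8 such genes 5 were tested in the 5-library fit, limma called 0 and 2 had an unadjusted p under 0.05, against 22.8% of all genes. BAG6, a chaperone of membrane proteins, had -0.17 (SE 0.05, adjusted p = 0.104) and DDX39B, an RNA helicase, -0.14 (SE 0.05, adjusted p = 0.183). ATP6V1G2, a proton pump subunit, had 0.33 (SE 0.16, adjusted p = 0.259) and PRRC2A -0.15 (SE 0.07, adjusted p = 0.264). Within 200 kb of the 3 ligand genes, 22 other protein-coding genes were tested, with log2 fold changes from -0.49 to 0.61, a median of -0.07 and 1 called lower, MSH5 at -0.35 (adjusted p = 0.0402), where 3.02% of all genes were called lower.

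The 2 chromosome 1 receptors are separated by 22.8 kb. Within 200 kb of the pair, 5 other protein-coding genes were tested, and their log2 fold changes ran from -0.19 to 0.16 with none called. TNFRSF8 at -1.01 and TNFRSF1B at -0.66 thus lay below all 5 of these neighbours in the same fit. The windows were chosen after the values had been seen.

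**Figure D3:**
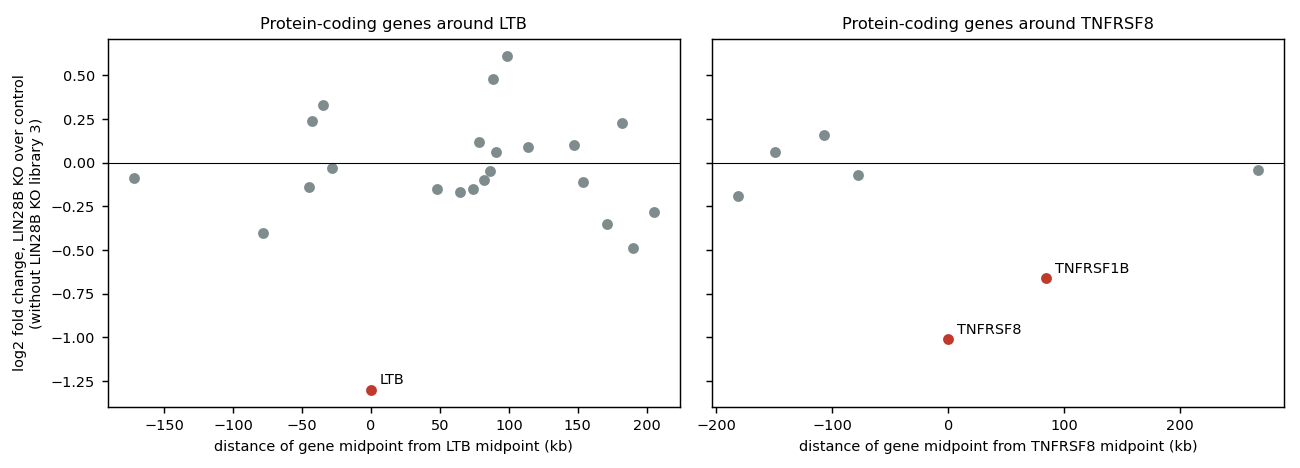
Log2 fold change of LIN28B KO over control in the 5-library fit (vertical axis) against distance of the gene midpoint in kb (horizontal axis) for protein-coding genes within 200 kb of LTA, TNF and LTB (left panel) and of TNFRSF8 and TNFRSF1B (right panel). Red points are LTB, TNFRSF8 and TNFRSF1B, grey points the neighbours, which lie between -0.49 and 0.61 on the left and between -0.19 and 0.16 on the right.

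In the rest of the superfamily no other ligand passed in the 5-library fit. Of 14 other ligands 3 were tested in that fit and 0 were called, with 0 at an unadjusted p under 0.05. TNFSF10, the death ligand TRAIL, had -0.26 (SE 0.11, adjusted p = 0.223), TNFSF9, the ligand of 4-1BB, had 0.06 (SE 0.09, adjusted p = 0.718) and EDA, an ectodysplasin, 0.08 (SE 0.21, adjusted p = 0.863). TNFSF13B, which encodes BAFF, the ligand of TNFRSF13B and TNFRSF13C, was under the 1 FPKM filter; it is named after its values were seen. It stood at 0.502, 0.273 and 0.529 FPKM in LIN28B KO libraries 1 to 3, against 0.777, 1.11 and 1.07 FPKM in the controls, with no overlap. Over 24744 genes at 0.1 FPKM or more in 3 libraries, 14.2% were lower and 11.7% higher without overlap. The TNFSF13B values rested on 0.63 to 2.6 fragment equivalents in LIN28B KO and 4.8 to 7.6 in control libraries. At the lower filter its log2 fold change in the 5-library fit was -0.75 (adjusted p = 0.0952), so it did not pass. TNFSF14 and TNFSF15, also under the 1 FPKM filter, were higher in LIN28B KO without overlap. They averaged 0.591 and 0.468 FPKM in LIN28B KO and 0.112 and 0.219 FPKM in control cells. Neither passed at the lower filter (adjusted p = 0.353 and 0.412).

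Of 23 other receptors 12 were tested in the 5-library fit, and 3 rose and 0 fell, where 1.08% of all 11308 genes were called higher and 3.02% lower. Of these 12, 6 had an unadjusted p under 0.05, in both directions, against 22.8% of all genes. All 3 calls were lost with the replicate block and when any 1 of the 5 libraries was left out, where no gene at all was called. TNFRSF17, or BCMA, the plasma cell receptor for BAFF and APRIL, stood at 160, 168 and 126 FPKM in LIN28B KO libraries 1 to 3, against 118, 121 and 132 FPKM in the controls. Its LIN28B KO library 3 lay among the controls, and the 5-library log2 fold change was 0.41 (limma, SE 0.07, adjusted p = 0.0329). TNFRSF14, a receptor for the ligand TNFSF14, had 0.45 (SE 0.09, adjusted p = 0.0414) and TNFRSF10D, a decoy receptor for TRAIL, 0.41 (SE 0.08, adjusted p = 0.0446). In LIN28B KO library 3 TNFRSF14 was at 13.5 FPKM and TNFRSF10D at 18.3 FPKM, below all their controls. EDA2R had 0.32 (SE 0.09, adjusted p = 0.102). At the lower filter 2 of these receptors were called higher, TNFRSF17 (adjusted p = 0.0396) and LTBR, against 0.737% of all genes there, and TNFRSF14 and TNFRSF10D were not (adjusted p = 0.0516 and 0.0537). With all 6 libraries limma called 0 of 13 receptors tested, where 1, LTBR, had an unadjusted p under 0.05, against 13.7% of all genes. LTBR reached 1 FPKM only in the LIN28B KO libraries, so it entered that fit through the group where it was high. After cyclic loess limma called 1 of the 13, TNFRSF17 (0.53, SE 0.07, adjusted p = 0.0390), where 0.361% of all genes were called higher.

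LTBR, the receptor of the LTA and LTB heterotrimer, was higher in LIN28B KO where LTB was lower; it too is named after its values were seen. It stood at 3.36, 2.09 and 2.36 FPKM in LIN28B KO libraries 1 to 3, against 0.447, 0.871 and 0.734 FPKM in the controls. The groups did not overlap, at 5.58 to 27.4 fragment equivalents in LIN28B KO and 3.07 to 4.50 in control libraries. It was under the 1 FPKM filter of the 5-library fit, and at the lower filter it rose with a log2 fold change of 1.43 (limma, SE 0.24, adjusted p = 0.0439). It missed the threshold after cyclic loess there (1.36, adjusted p = 0.0593) and with all 6 libraries (1.39, SE 0.26, adjusted p = 0.221). LTBR entered that 6-library fit only through the LIN28B KO libraries, where it was high. At the lower filter, which it met in every library, its adjusted p with all 6 libraries was 0.259. The locus of LTBR shares 2686 bases with SCNN1A, a sodium channel gene that averaged 3.49 FPKM in LIN28B KO and 1.80 FPKM in control cells. SCNN1A had a limma log2 fold change of 0.42 with all 6 libraries (adjusted p = 0.709). In the 5-library fit at 1 FPKM its log2 fold change was -0.28 (adjusted p = 0.381). Without strand the reads of LTBR and SCNN1A are uncertain where the 2 genes overlap.

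**Figure D4:**
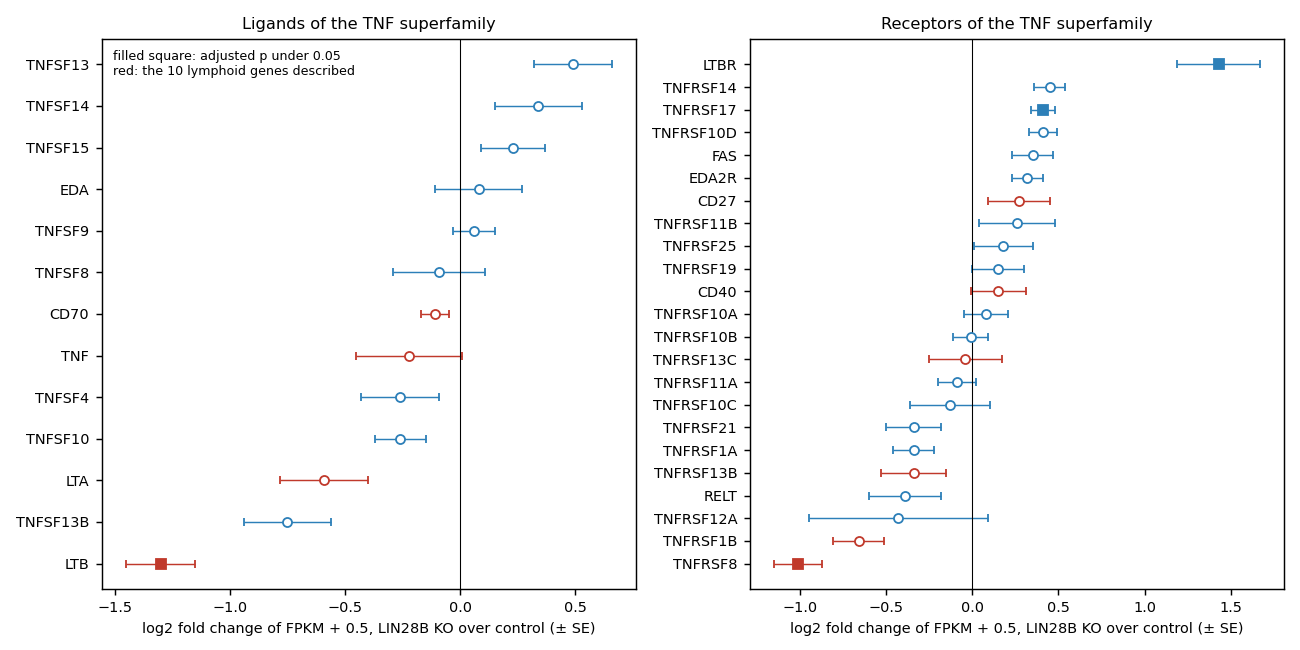
Log2 fold change of LIN28B KO over control in the 5-library fit at the lower filter (horizontal axis, ± SE) for TNF superfamily ligands (left) and receptors (right) at 0.1 FPKM or more in 3 libraries. Red marks the 10 genes and blue the rest of the family, filled squares have an adjusted p under 0.05: LTB and TNFRSF8 are the lowest of each panel and LTBR is the highest receptor at 1.43.

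Downstream of the receptors no listed gene passed in either fit before cyclic loess. All 23 receptor-proximal adaptors and enzymes were tested, and limma called 0 in the 5-library fit, with 3 at an unadjusted p under 0.05, and 0 with all 6 libraries, with 1. Over all genes 22.8% had an unadjusted p under 0.05 in the 5-library fit and 13.7% with all 6 libraries, so these counts were not above the shares of all genes. Their median log2 fold change in the 5-library fit was 0.12, against -0.04 for all genes. TRAF4, an adaptor, had -0.35 (SE 0.08, adjusted p = 0.0743), TAB1, a partner of the kinase TAK1, 0.40 (SE 0.11, adjusted p = 0.0864) and TNFAIP3, a ubiquitin-editing inhibitor, 0.64 (SE 0.23, adjusted p = 0.165). FADD, the death domain adaptor, had -0.26 (SE 0.11, adjusted p = 0.237).

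Of 11 IKK and NF-kB subunit and inhibitor genes 10 were tested in the 5-library fit, and 0 were called, with 2 at an unadjusted p under 0.05, against 22.8% of all genes. RELB, the subunit of the noncanonical pathway that LTBR, TNFRSF8 and CD40 engage, had the smallest p, with 0.60 (SE 0.13, adjusted p = 0.0551), at 7.02, 6.61 and 4.19 FPKM in LIN28B KO libraries 1 to 3 against 4.79, 4.35 and 3.90 FPKM in the controls. CHUK, an IKK kinase, had 0.26 (adjusted p = 0.194), NFKBIE, an inhibitor, 0.20 (adjusted p = 0.451) and NFKB2 0.14 (adjusted p = 0.472). Of 20 NF-kB response genes 12 were tested, with 0 called and 3 at an unadjusted p under 0.05, near the same share of all genes, and they did not share 1 direction: 7 had a positive and 5 a negative log2 fold change. The response list shares BIRC3, TRAF1 and TNFAIP3 with the adaptor list and NFKB2, NFKBIE, NFKBIA and RELB with the subunit list. Its counts are therefore not separate from theirs, and RELB and TNFAIP3 were among the genes at an unadjusted p under 0.05 each time. With all 6 libraries limma called 0 of 11 subunit genes, with 0 at an unadjusted p under 0.05, and 0 of 13 response genes, with 2. Over all genes 13.7% had such a p there. After cyclic loess 1 response gene rose there, the chemokine CCL3, at 73.0, 67.4 and 39.3 FPKM in LIN28B KO libraries 1 to 3 against 36.2, 33.1 and 30.3 FPKM in the controls (log2 fold change 1.00, SE 0.13, adjusted p = 0.0433). In that fit 0.361% of all genes were called higher. CCL3 was above 1 FPKM in every library but was not matched to a protein-coding gene of GENCODE 29, so the 5-library fit left it out. It is named after its values were seen. TNFAIP2 had -0.78 (SE 0.18, adjusted p = 0.0646), with 24.0, 15.5 and 18.0 FPKM in LIN28B KO libraries 1 to 3 against 36.6, 32.8 and 31.3 FPKM in the controls, and MALT1, a signalling protease, had -0.23 (adjusted p = 0.283).

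Among 11433 other protein-coding genes tested with all 6 libraries, the gene whose pattern lay nearest to that of LTB was LIN28B. Likeness was the Euclidean distance between log2(FPKM + 0.5) profiles over the 6 libraries, each centred on its own mean, and it is a description with no test. The distance was 0.291 for LIN28B, 0.355 for NFATC4, 0.362 for LRRC26, 0.458 for TNFRSF8 and 0.494 for ARG2. NFATC4 and TNFRSF8 reached 1 FPKM only in controls, so they were candidates through the group where they were high. In LIN28B KO libraries NFATC4 rested on 0.632 to 3.59 fragment equivalents. NFATC4, a transcription factor of the NFAT family, averaged 0.444 FPKM in LIN28B KO and 1.85 FPKM in control cells, and ARG2, a mitochondrial arginase, 1.84 FPKM in LIN28B KO and 4.74 FPKM in control cells. LRRC26 averaged 0.898 FPKM in LIN28B KO and 3.29 FPKM in control cells. TNFRSF1B followed at rank 31 with 0.796, CD70 at rank 2637 with 1.46 and CD27 at rank 8390 with 1.86. The points share depth and the deviation of LIN28B KO library 3, in which LTB, LIN28B and TNFRSF8 were each at their lowest.

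Markers of other blood cells were set beside these values, since lymphoid and myeloid cells also express LTB, TNFRSF1B and TNFRSF8. The summed level of 8 monocyte markers was 3.19 to 3.72 FPKM in LIN28B KO and 1.40 to 1.95 FPKM in control libraries. Of these 8 markers, 0 averaged 1 FPKM or more over the 6 libraries. S100A8 and S100A9, calcium-binding proteins of myeloid cells, were higher without overlap, with S100A8 at a mean of 1.44 FPKM in LIN28B KO and 0.459 FPKM in control cells and S100A9 at 0.718 FPKM in LIN28B KO and 0.230 FPKM in control cells. S100A8 rested on 4.2 to 11.9 fragment equivalents in LIN28B KO and 1.6 to 4.1 in control libraries. For S100A9 these were 6 to 8 in LIN28B KO and 1 to 5 in control libraries. At the lower filter limma called S100A8 higher in the 5-library fit (log2 fold change 1.27, adjusted p = 0.0451), where 0.737% of all genes were. S100A8 was not called there after cyclic loess (adjusted p = 0.0635) or at that filter with all 6 libraries (adjusted p = 0.348). S100A9 was not called in that 5-library fit (adjusted p = 0.114). CD68, a macrophage marker, overlapped at 0.164 FPKM in LIN28B KO and 0.391 FPKM in control cells, and FCGR3A was at 0 in all 6 libraries. The monocyte markers CD14, LYZ, CSF1R and ITGAM overlapped too. The 8 T and NK cell markers summed to 21.4 to 35.7 FPKM in LIN28B KO and 31.0 to 32.1 FPKM in control libraries, of which CD247 made up 17.7 to 32.3 and 27.0 to 28.1 FPKM, with CD3D and NKG7 at 0. Of the other T cell markers CD3E and CD3G were higher in LIN28B KO without overlap, at 1.03 and 1.04 FPKM in LIN28B KO and 0.757 and 0.365 FPKM in control cells, and CD7 was lower without overlap, at 1.18 FPKM in LIN28B KO and 2.59 FPKM in control cells. CD3G rested on 2.5 to 3.9 fragment equivalents in control libraries. Over 24744 genes at 0.1 FPKM or more in 3 libraries, 11.7% were higher and 14.2% lower without overlap. The 7 B cell markers summed to 27.0 to 35.4 FPKM in LIN28B KO and 34.1 to 36.5 FPKM in control libraries, with MS4A1 at 0 and CD79A at 1.31 FPKM in LIN28B KO and 1.45 FPKM in control cells. The 5 fibroblast markers summed to 13.6 FPKM in LIN28B KO library 3, to 3.62 FPKM in library 1, to 3.49 FPKM in library 2 and to 3.04 to 5.56 FPKM in controls, and the 4 erythroid markers to at most 0.619 FPKM in LIN28B KO and 0.953 FPKM in control libraries. Among the fibroblast markers COL1A1 was higher without overlap, at 2.60 FPKM in LIN28B KO and 0.981 FPKM in control cells, while COL1A2, COL3A1, DCN and LUM overlapped. The part of all these markers in the results was not tested.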

How the data were processed

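RNA sequencing had been carried out on 6 MOLP-8 libraries, 3 per group. The condition label, which says LIN28B KO, set the groups. The titles, which say KD instead, gave the replicate numbers. The genome build GRCh37 and the tools cutadapt, HTSeq and TopHat2 are named per the submitters' processing notes, without versions or roles; which tool wrote the tables is not given in the sources used here. Per the file headers, the authors deposited FPKM values for genes, each with bounds of its estimate and a status flag. Each table had 58000 rows for 57886 genes; rows of the 108 repeated genes were summed, and 25 genes with a failed estimate were left out. An upper bound 2 SDs above the estimate gives the fragment equivalents used to describe depth, and bounds cover counting error only.

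For testing, limma 3.58.1 in R 4.3.3 was run on log2(FPKM + 0.5), with trended variances, and p-values were adjusted by Benjamini-Hochberg with a threshold of 0.05. All 6 libraries were fitted over 15803 genes that reached 1 FPKM in 3 or more libraries, and 5 libraries, without LIN28B KO library 3, over 11308 such protein-coding genes by GENCODE 29. For genes under the filter the same fits were run at 0.1 FPKM. Alternatives were other pseudocounts and filters, other scalings, a replicate block and leaving out each library. The scripts were tested on simulated data. Named genes were the 10 genes, LIN28B, up to 4 genes per list by p in the 5-library fit and the 5 nearest to LTB. Beyond that rule LTBR, TNFSF13B, TNFSF14, TNFSF15, CCL3, MSH5 and the marker genes were named after their values were seen. The members, the lists and the 5-library fit were chosen with earlier results of these data known.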

Additional observations from a re-analysis of the deposited data

How the results depend on the processing

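LTB, LTA, CD70, TNFRSF8, TNFRSF1B and TNFRSF13B kept a negative log2 fold change under every alternative run in both fits. The number of genes called with all 6 libraries was 15, against 28 with quantile normalization, 111 with cyclic loess, 77 with cyclic loess at the 0.1 FPKM filter, 6 without a filter and 4 to 64 when 1 library was left out (64 without LIN28B KO library 3, 7 and 4 without LIN28B KO library 1 or 2). Of the 10 genes, 0 were called there and 1, LTB, with cyclic loess. In the 5-library fit 463 genes were called, against 247 with quantile normalization, 254 with cyclic loess, 189 with cyclic loess at the 0.1 FPKM filter, 64 over genes of every kind, 24 without a filter, 0 with the replicate block and 0 when any 1 library was left out. Of the 10 genes, 2 were called in it and 0 over genes of every kind, without a filter, with the replicate block or without any 1 library. Fits that leave 1 LIN28B KO library assume that it varies like the controls. Same-numbered libraries did not deviate together from their group means (correlations of -0.0213, 0.0437 and -0.0327). LIN28B KO library 3 enters the LIN28B KO group mean, so these correlations cannot decide whether libraries were paired. The labels do not state pairing. When 1 library was left out, CD27 ranged from -0.18 to 0.27 with all 6 libraries (0.27 without LIN28B KO library 3, 0.01 and 0.09 without control library 1 or 3), TNF from -0.36 to 0.04 with 5 libraries (0.04 without LIN28B KO library 1) and TNFRSF13C from -0.22 to 0.13 with 5 libraries (0.13 and 0.11 without LIN28B KO library 2 or control library 2), so their signs turned, as did that of CD40 with quantile normalization of all 6 libraries (-0.03). The causes were not tested. LTA, TNF and CD40 rested on the fewest fragments, at most 17.0 equivalents per library.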
